A study of Mus musculus with 6 samples.

Results

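The genes described here mark the blood vessels of the brain: 25 genes of endothelial cells, which line the vessel, and 10 genes of mural cells, the pericytes and smooth muscle cells that wrap it. They were selected by name as blood-brain barrier endothelial, pericyte and smooth muscle genes, and all 35 of them were found among the 53640 gene symbols shared by the 6 libraries. RNA was sequenced from PFC tissue (bulk lysate) of mice aged 6 months, in 3 groups of 2 libraries described as biological duplicates. Control mice were C57BL/6 x C3H and received vehicle. PS19(P301S) mice, in which the prion promoter drives P301S mutant human tau, received vehicle (called tau here) or WDR5-0103, a small molecule that binds the histone methylation cofactor WDR5 (called treated tau here). No group of treated control mice was analysed here, and the sources used here give no dose, route or duration. Levels are CPM, read counts scaled to a common library total with the TMM factors of edgeR, and a gene was called where the quasi-likelihood test of edgeR gave an adjusted p under 0.05 over all 20694 genes tested.

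Endothelial cells of the brain form a barrier because tight junction proteins seal the gaps between neighbouring cells while transporters in their membranes carry nutrients in and pump drugs out. Pericytes share the basement membrane of capillaries and help to maintain that barrier, and smooth muscle cells give arterioles their contractile wall. Growth factor receptors of the VEGF, angiopoietin and PDGF families act in the survival and maturation of these cells. In bulk tissue, fewer vessel cells and less RNA per vessel cell cannot be told apart.

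Total counts ranged from 17690811 to 34774643 per library. Some libraries stood apart. Prnp, the prion gene whose promoter and flanking sequence the transgene uses, was at 1654 CPM in the library labelled control 1, within the 1472 to 1876 CPM of the PS19 libraries, and at 876 CPM in control 2. This check went against the label of that library, and "control 1" below always stands for the library so labelled. That library also had 74.4 CPM summed over the 2 tested markers of olfactory bulb neurons, against 2.80 to 5.17 CPM in the others. Tau 2 had 166 CPM summed over 6 markers of striatal projection neurons, tau 1 had 97.3 CPM, and the control and treated libraries had 63.9 to 78.3 CPM. Tau 2 also had 5119 CPM over 6 oligodendrocyte markers, against 1332 to 2712 CPM elsewhere. By Xist and the Y-linked gene Ddx3y, the tau libraries were female and those of treated tau male, while control 1 was male and control 2 female, so treatment and sex of the transgenic mice cannot be told apart. Markers of other vessel-associated cells varied as well. Meningeal and fibroblast markers (8 genes) summed to between 34.6 CPM (tau 2) and 71.0 CPM (control 2), perivascular macrophage markers (6 genes) to between 11.0 CPM (treated tau 2) and 22.1 CPM (tau 1), and haemoglobin and red cell markers (5 genes) to between 39.0 CPM (tau 2) and 70.4 CPM (tau 1). Choroid plexus markers (5 tested) summed to 3.92 to 13.3 CPM, astrocyte markers (6 genes) to 1064 to 1166 CPM and microglial markers (6 genes) to 204 to 238 CPM.

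Promoters of Cldn5, Kdr and Myl9 are shown first, because the histone mark that the series title names, K4 trimethylation, is found at promoters. No measurement of that mark was used here. Each sequence is the 250 bases before the RefSeq start site on build GRCm38.p6, in the sense direction. Cldn5 (chr16:18776597-18776846, plus strand) and Kdr (chr5:75978456-75978705, minus strand) were lower in both tau libraries than in any other library. Myl9 (chr2:156775214-156775463, plus strand) belongs to the smooth muscle genes, the role with the largest median difference between the treated tau libraries. Its own log2 difference, treated tau 1 minus treated tau 2, was the smallest of that role. It was 0.83, against 2.56 for Acta2, 1.67 for Tagln and 1.03 for Des. Capitals mark GC boxes (GGGCGG, either strand) and CCAAT boxes (CCAAT, either strand) in Cldn5 and Kdr, and the CArG box, the element bound by serum response factor, in Myl9.
Cldn5: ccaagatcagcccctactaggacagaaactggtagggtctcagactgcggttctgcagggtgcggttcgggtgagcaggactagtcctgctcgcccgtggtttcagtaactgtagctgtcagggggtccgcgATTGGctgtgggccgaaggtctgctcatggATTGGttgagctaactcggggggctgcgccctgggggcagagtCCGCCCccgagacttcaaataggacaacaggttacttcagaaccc
Kdr: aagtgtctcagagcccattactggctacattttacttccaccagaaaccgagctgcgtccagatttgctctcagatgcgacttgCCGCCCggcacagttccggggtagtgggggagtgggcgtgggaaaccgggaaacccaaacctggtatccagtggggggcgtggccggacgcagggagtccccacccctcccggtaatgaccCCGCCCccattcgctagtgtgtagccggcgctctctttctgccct
Myl9: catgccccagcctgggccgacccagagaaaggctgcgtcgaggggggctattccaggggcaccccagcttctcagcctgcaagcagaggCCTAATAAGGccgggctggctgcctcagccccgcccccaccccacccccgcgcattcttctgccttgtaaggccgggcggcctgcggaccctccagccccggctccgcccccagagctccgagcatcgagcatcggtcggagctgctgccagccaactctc

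In both Cldn5 and Kdr a GC box began 45 bases before the start site, and Kdr had another at 166. Cldn5 had CCAAT boxes at 118 and 88 bases, and Kdr had none in this window. The CArG box of Myl9 began at 161 bases, and its window also had 3 GC boxes, which are not in capitals. RefSeq promoters were matched for 18 endothelial members (24 promoters) and 7 mural members (7 promoters). The ETS core AGGAAG, searched on both strands, was in 14 of the 24 endothelial promoters (58.3%), in 0 of the 7 mural promoters and in 29.5% of all 32851 promoters. The windows of Cldn5 and Kdr shown above had no ETS core, and the 14 include more than 1 promoter each of Abcg2 and Egfl7. GC boxes were in 45.8% of the endothelial, 57.1% of the mural and 32.7% of all promoters, and CCAAT boxes in 25%, 14.3% and 33.8%. The CArG box was in 0 endothelial promoters, in 1 mural promoter, that of Myl9, and in 1.47% of all promoters. The window of Acta2, the smooth muscle gene that differed most between the treated tau libraries, had none of these motifs. Promoters of 1 gene overlap or lie near each other, and a match of letters is a description of the window, not a binding site.

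All 35 members passed the filter on low counts, 25 endothelial and 10 mural, and defining genes of both cell classes (Cldn5, Pecam1 and Cdh5; Pdgfrb, Rgs5 and Acta2) had counts in every library. Levels compared per kilobase of exon, as the mean over the 6 libraries, were highest for the pericyte genes Rgs5, a regulator of G protein signalling (27.3 CPM per kb), and Vtn, which encodes the matrix protein vitronectin (24.9). The endothelial genes Tjp1 (18.8 CPM per kb), Itm2a (17.6), Slc2a1 (13.2) and Cldn5 (12.9) followed. Which cells of the bulk tissue the reads of each gene came from was not tested. The ranges over libraries of Rgs5 (24.8 to 28.5 CPM per kb) and Vtn (18.7 to 31.7) overlapped, as did those of Tjp1 (16.5 to 20.0) and Itm2a (11.6 to 21.2). At the low end stood the smooth muscle genes Tagln (0.201 CPM per kb) and Des (0.222) and the pericyte aminopeptidase gene Anpep (0.385). Tagln had between 3 and 18 counts per library, so its values are the least precise of the list. Abcb1a (17.6% of its 50-base windows found in another gene, mostly Abcb1b), Ly6c1 (32.8%, mostly Ly6c2) and Ly6a (19%, mostly Ly6c1) can exchange reads with near-copies and are uncertain. Exons of 8 members overlap exons on the opposite strand, the longest being 1349 bases of Tagln, and the sources used here do not give the strand setting of the counting.

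**Figure D1:**
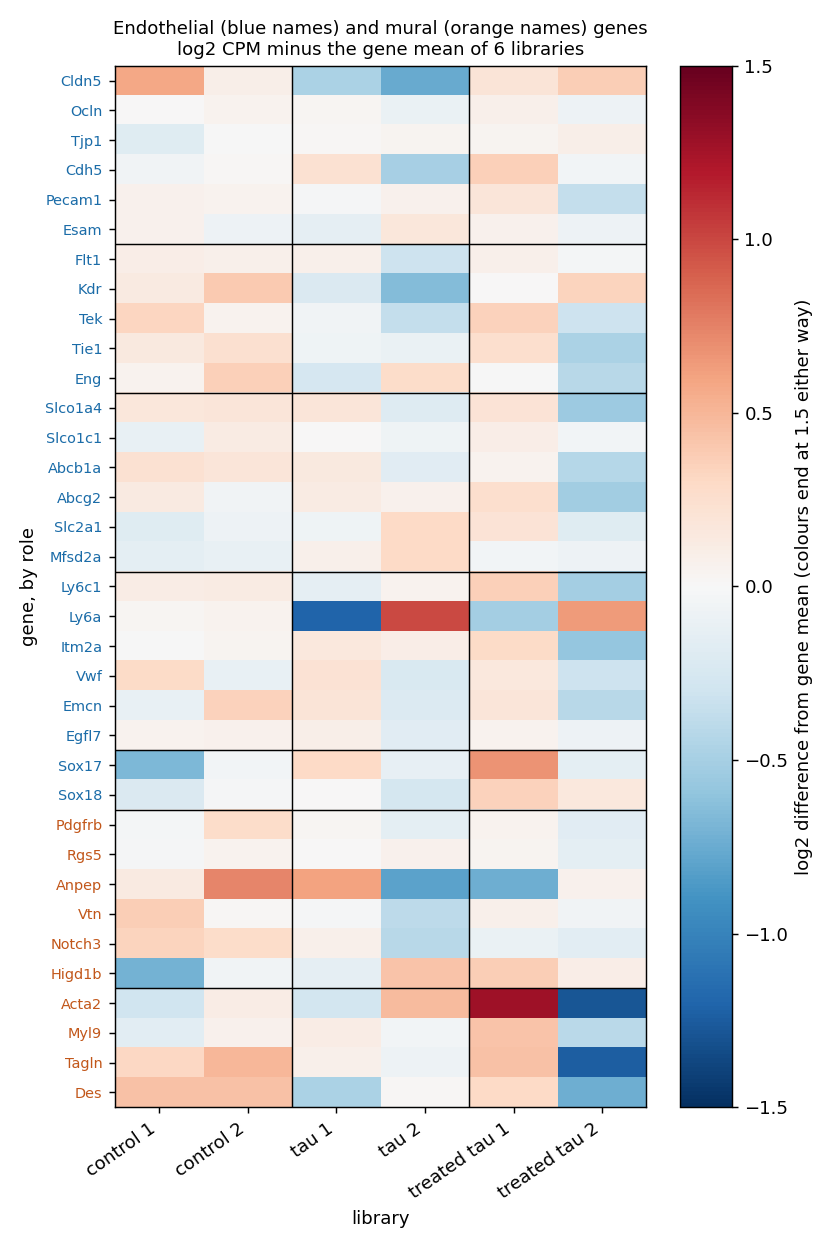
Log2 CPM of each of the 35 vessel genes (rows, grouped by role, endothelial names in blue and mural names in orange) in each of the 6 libraries (columns), as the difference from the mean of that gene over the libraries. Cldn5 and Kdr are lowest in the 2 tau libraries, and the smooth muscle genes in the bottom rows are high in treated tau 1 and low in treated tau 2.

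The comparison of tau with control asks how vessel genes differ with the transgene. No member was called, and neither was any gene in this comparison (0% of 20694). DESeq2 called 55 genes, 0 of them members, but gave no adjusted p to 13641 genes, 26 members among them. Without control 2, edgeR called 98 genes. Cldn5, which encodes claudin-5, the main claudin of tight junctions in brain endothelium, had the lowest p among the members. Cldn5 had 26.1 CPM in control 1, 18.6 CPM in control 2, 12.5 CPM in tau 1 and 10.3 CPM in tau 2. Both tau libraries lay below both control libraries. The control mean was 22.4 ± 5.34 CPM and the tau mean 11.4 ± 1.55 CPM (± SD, n = 2), a fold of 0.516. The log2 fold change was -0.95 ± 0.19 (SE), with an unadjusted p of 0.000547 and an adjusted p of 0.442 in edgeR. Cldn5 was thus not called here, and its log2 fold change depended on the control library. Without control 2 it was -1.18, the only left-out fit of this comparison in which Cldn5 passed. The lone control was then control 1, whose Prnp was at the level of the PS19 libraries. Without control 1 it was -0.68, and Cldn5 did not pass.

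Kdr, which encodes the main VEGF receptor of endothelium, came next. It had 13.9 and 16.7 CPM in control 1 and control 2, 10.8 and 8.02 CPM in tau, and 12.7 and 16.0 CPM in treated tau. Both tau libraries were again below every other library. In tau against control its log2 fold change was -0.67 ± 0.19 (SE; unadjusted p = 0.0065, adjusted p = 0.442). It was -0.79 without control 1, and ranged from -0.92 to -0.49 over the fits that each left out 1 library. The other receptor genes had smaller differences of the same sign that did not pass: -0.38 for Tek and -0.28 for Tie1, the angiopoietin receptor and its partner, -0.21 for Eng, a TGF-beta co-receptor, and -0.19 for Flt1, the VEGF receptor that also acts as a decoy. In the same comparison the 6 markers of striatal neurons were all higher in tau, with groups that did not overlap and an unadjusted p under 0.05 for each, though 0 were called (median log2 fold change 1.22). Their part in the values of Cldn5 and Kdr was not tested.

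The other junction genes had smaller differences in tau against control, and none passed. Their log2 fold changes were -0.054 for Ocln, which encodes occludin, 0.12 for the scaffold gene Tjp1, -0.024 for Cdh5, the cadherin of endothelial adherens junctions, -0.039 for Pecam1 and 0.0096 for Esam, both adhesion molecules between endothelial cells. Relative to the mean log2 level of the other 24 endothelial members, each centred on its own mean, Cldn5 was at 0.57 in control 1, 0.010 in control 2, -0.47 in tau 1, -0.71 in tau 2, 0.041 in treated tau 1 and 0.56 in treated tau 2. Both tau libraries were therefore below every other library on this scale too, and control 2 and treated tau 1 lay close to each other. Kdr, set in the same way against the other 24 endothelial members, was at 0.11 in control 1 and 0.33 in control 2. It was at -0.20 in tau 1, -0.60 in tau 2, -0.16 in treated tau 1 and 0.52 in treated tau 2. Tau 1 and treated tau 1 thus nearly met for Kdr on this scale.

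Among transporters, 3 of 6 were positive and 3 negative in tau against control. Mfsd2a, a lipid transporter that restrains transcytosis across the barrier, had the smallest p of them, with 13.1 and 13.4 CPM in control, 15.3 and 17.8 CPM in tau and 14.1 and 13.8 CPM in treated tau. Its tau libraries were above the other 4. In tau against control its log2 fold change was 0.31 ± 0.14 (SE; unadjusted p = 0.0493, adjusted p = 0.499), and 0.20 without tau 2. Slc2a1, the glucose transporter GLUT1, had 0.25, the efflux pump genes Abcb1a and Abcg2 had -0.20 and 0.054, and the organic anion transporters Slco1a4 and Slco1c1 had -0.17 and -0.037. None of these passed. The surface and secreted genes lay between -0.16 (Ly6c1) and 0.11 (Itm2a), and the transcription factor genes Sox17 and Sox18 at 0.47 and 0.013. Ly6a, an interferon-inducible surface antigen of endothelium named here after its values were seen, differed more within the PS19 groups than between groups: 3.51 and 3.57 CPM in control, 1.45 and 6.88 CPM in tau, and 2.40 and 5.37 CPM in treated tau.

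Mural genes, of which 0 were called, had a median log2 fold change of -0.24 in tau against control, next to -0.054 for the endothelial members and -0.0030 for all genes tested. Of 10 mural members 6 were negative, and of 25 endothelial members 16, while 49.4% of all genes tested were positive. Vtn had 64.3 and 50.4 CPM in control and 49.3 and 38.1 CPM in tau, so that control 2 and tau 1 nearly met (log2 fold change -0.38 ± 0.15 SE, unadjusted p = 0.0284, adjusted p = 0.456). The value was -0.19 without control 1, -0.22 without tau 2 and -0.59 without tau 1. Notch3, the Notch receptor of mural cells, had 7.50 and 7.21 CPM in control and 6.26 and 4.41 CPM in tau (-0.43 ± 0.21, adjusted p = 0.518), with -0.73 without tau 1 and -0.23 without tau 2. Des, which encodes the intermediate filament desmin, had 1.11 and 1.10 CPM in control and 0.548 and 0.802 CPM in tau (-0.75 ± 0.50, adjusted p = 0.613), from 14 to 28 counts. Rgs5 was nearly level, with 123 and 128 CPM in control and 125 and 130 CPM in tau. The mural median depended on single libraries: it was 0.011 without control 2, -0.36 without tau 1 and -0.15 without tau 2. It was -0.095 with a minimum count of 30, which left 8 mural members. The endothelial median was 0.0060 without tau 2 and -0.13 without tau 1.

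At an unadjusted p under 0.05, 3 of the 35 members were lower in tau (Cldn5, Kdr and Vtn) and 1 was higher (Mfsd2a), where 9.95% of all genes tested passed (5.64% lower and 4.31% higher). The library values did not overlap between control and tau for 11 members that were lower and 4 that were higher, against 41.6% of all genes tested (21.3% lower and 20.3% higher).

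**Figure D2:**
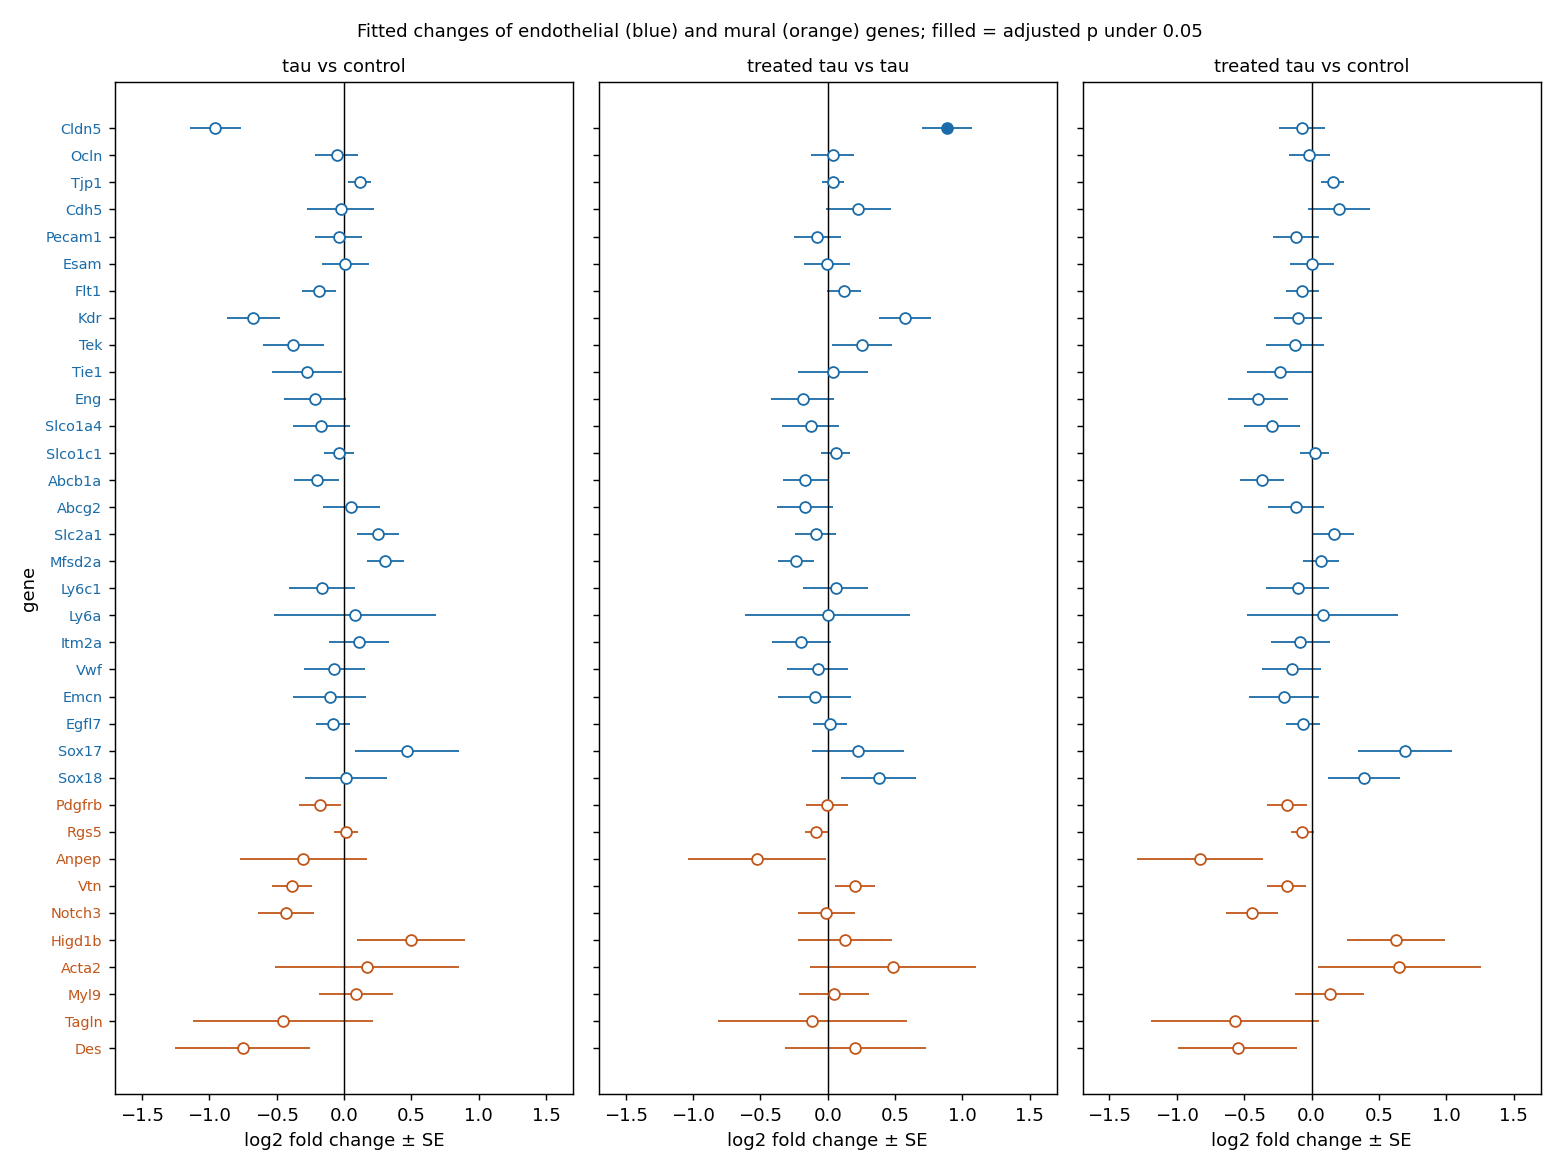
Log2 fold changes (horizontal axis, with SE bars) of the 35 vessel genes in the 3 comparisons, endothelial in blue and mural in orange; filled points passed an adjusted p of 0.05. Cldn5 in treated tau against tau (0.88) is the single filled point, and most open points lie within 0.5 of 0.

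The comparison of treated tau with tau asks how they differ with WDR5-0103 in transgenic tissue. Cldn5 was higher in treated tau and was the single member called, 1 of 35, where 3.76% of all genes tested were called (3.09% higher and 0.677% lower). It had 20.0 CPM in treated tau 1 and 22.7 CPM in treated tau 2, against 12.5 CPM in tau 1 and 10.3 CPM in tau 2, so both treated libraries lay above both tau libraries. The treated mean was 21.3 ± 1.87 CPM and the tau mean 11.4 ± 1.55 CPM (± SD, n = 2), a fold of 1.85 and a log2 fold change of 0.88 ± 0.19 (SE; adjusted p = 0.0285). Kdr had the next smallest p, with a log2 fold change of 0.57 ± 0.19 (SE; unadjusted p = 0.0146, adjusted p = 0.213), and its treated libraries also lay above its tau libraries without overlap.

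The call of Cldn5 in treated tau against tau was lost when any 1 of the 4 libraries compared was left out (log2 fold changes 0.77 to 1.05, adjusted p from 0.098 to 0.21), with no filter on low counts (0.0735) and with protein-coding genes fitted alone (0.143). With sex as a term, estimated in effect from the difference between the control libraries, its log2 fold change was 0.39 and the adjusted p 0.593. Markers of striatal neurons moved in the opposite direction in this comparison, with 6 of 6 lower and 2 of them called, and their part in the result was not tested.

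The remaining endothelial genes differed little between treated tau and tau. The junction genes other than Cldn5 lay between -0.077 (Pecam1) and 0.23 (Cdh5), and Tjp1 at 0.040 with 129 and 147 CPM in control, 148 and 151 CPM in tau and 151 and 157 CPM in treated tau. Receptor genes ranged from -0.19 for Eng to the value of Kdr, with 0.25 for Tek. Of the transporters 5 of 6 were negative, led by Mfsd2a (-0.24 ± 0.13 SE, adjusted p = 0.574), whose treated libraries were both below its tau libraries. Summed over the transporters, the treated libraries lay on either side of tau. They had 249 CPM in treated tau 1 and 185 CPM in treated tau 2, against 236 and 226 CPM in tau 1 and tau 2. Sox18, a transcription factor of endothelial identity, had 1.89 and 2.20 CPM in control, 2.23 and 1.83 CPM in tau and 2.84 and 2.50 CPM in treated tau (0.38 ± 0.28, adjusted p = 0.71). The treated libraries of Sox18 were both above those of tau.

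Itm2a, an X-linked membrane protein gene enriched in brain endothelium, showed how much the treated libraries differed. It had 30.1 and 30.9 CPM in control, 33.6 and 32.2 CPM in tau, 36.9 CPM in treated tau 1 and 20.2 CPM in treated tau 2, so that 1 treated library was above both tau libraries and the other below them (log2 fold change -0.20 ± 0.22 SE, adjusted p = 0.84). Without treated tau 1 it passed as lower (-0.70, adjusted p = 0.0461), and without treated tau 2 its log2 fold change was 0.16. Ly6c1, a GPI-anchored antigen of endothelium, followed the same order, with 17.7 and 17.8 CPM in control, 14.9 and 17.0 CPM in tau and 21.0 and 11.5 CPM in treated tau. Emcn, a sialomucin of the endothelial surface, had 4.89 and 6.74 CPM in control, 6.02 and 4.58 CPM in tau and 5.99 and 3.95 CPM in treated tau.

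No mural gene was called in treated tau against tau, and the mural median log2 fold change was 0.021, next to 0.016 for the endothelial members and -0.0060 for all genes tested. Of the 10 mural members 5 were positive and 5 negative, and of the 25 endothelial members 13 and 12, while 48.7% of all genes tested were positive. Both medians turned with single libraries: without treated tau 1 the endothelial median was -0.25 and the mural -0.15, and without treated tau 2 they were 0.15 and 0.25. Vtn had 52.6 and 48.2 CPM in treated tau (0.20 ± 0.15 SE, adjusted p = 0.711). Rgs5 had 127 and 113 CPM in treated tau. Anpep had 2.27 and 0.802 CPM in tau and 0.848 and 1.53 CPM in treated tau, which overlap (-0.53 ± 0.51, adjusted p = 0.802). At an unadjusted p under 0.05, Cldn5 and Kdr were higher and 0 members lower, where 12% of all genes tested passed (7.52% higher and 4.45% lower). Groups did not overlap for 4 members that were higher and 1 that was lower, against 41.3% of all genes tested (21.2% higher and 20.1% lower).

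**Figure D3:**
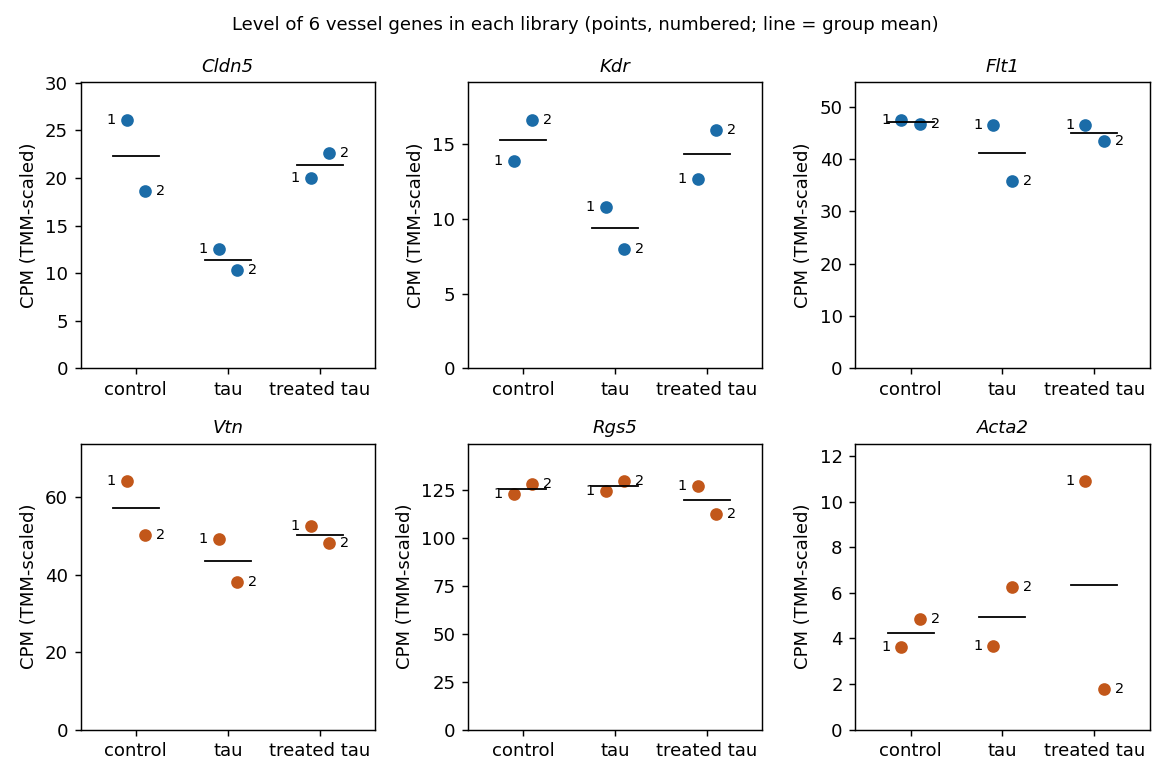
TMM-scaled CPM (vertical axes from 0) of 3 endothelial genes (Cldn5, Kdr, Flt1, blue) and 3 mural genes (Vtn, Rgs5, Acta2, orange) in each library, numbered 1 and 2 within a group; lines are group means. Cldn5 is at 18.6 CPM or more in control, 12.5 CPM or less in tau and 20.0 CPM or more in treated tau, while the 2 treated tau values of Acta2 (10.9 and 1.79 CPM) lie on either side of all others.

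The comparison of treated tau with control asks how far treated transgenic tissue lay from tissue labelled as control, of which control 1 had Prnp at the level of the PS19 libraries. It shares its libraries with the comparisons above. No member was called, where 4.22% of all genes tested were called (3.32% higher and 0.899% lower). Cldn5 had a log2 fold change of -0.070 ± 0.17 (SE; adjusted p = 0.883), with both treated values between the control values of 26.1 and 18.6 CPM. Kdr had -0.10 ± 0.18 (adjusted p = 0.836). For both genes the sign depended on single libraries: Cldn5 had 0.20 without control 1 and 0.027 without treated tau 1, and Kdr had 0.042 without control 2 and 0.073 without treated tau 1.

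The members with the smallest p in treated tau against control were Abcb1a, the P-glycoprotein pump gene, and Notch3. Abcb1a had 34.5 and 33.3 CPM in control, 32.5 and 26.0 CPM in tau and 30.5 and 21.7 CPM in treated tau, with a log2 fold change of -0.37 ± 0.16 (SE; unadjusted p = 0.0474, adjusted p = 0.299). It was -0.63 without treated tau 1 and -0.15 without treated tau 2. Notch3 had 5.52 and 5.29 CPM in treated tau, below both control values of 7.50 and 7.21 CPM (-0.44 ± 0.19, unadjusted p = 0.0486, adjusted p = 0.303). No other member had an unadjusted p under 0.05, which 16.3% of all genes tested reached (8.16% higher and 8.09% lower).

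The following members did not pass in treated tau against control and had wider errors. Anpep was at 1.62 and 2.47 CPM in control (log2 fold change -0.83 ± 0.47 SE, adjusted p = 0.436). Higd1b, a mitochondrial protein gene enriched in pericytes, had 0.947 and 1.53 CPM in control, 1.45 and 2.18 CPM in tau and 2.08 and 1.72 CPM in treated tau (0.63 ± 0.36, adjusted p = 0.447). Sox17, a transcription factor of arterial endothelium, had 1.82 and 2.86 CPM in control, 3.64 and 2.69 CPM in tau and 4.73 and 2.65 CPM in treated tau (0.69 ± 0.35, adjusted p = 0.376). Des had 0.994 and 0.447 CPM in treated tau (-0.55 ± 0.44, adjusted p = 0.596). Eng had 8.25 and 10.2 CPM in control, 6.69 and 9.63 CPM in tau and 7.92 and 5.97 CPM in treated tau (-0.40 ± 0.22, adjusted p = 0.422). The treated values did not overlap those of control for Anpep, Higd1b, Des and Eng, and overlapped for Sox17. Over all members the groups did not overlap for 4 that were higher and 6 that were lower, against 46.3% of all genes tested (23% higher and 23.3% lower). The median log2 fold change was -0.070 for endothelial and -0.18 for mural members, and -0.0068 for all genes tested. Of the members 12 were positive and 23 negative, while 48.8% of all genes tested were positive. The endothelial median was -0.11 without treated tau 1 and 0.074 without treated tau 2, and the mural median -0.39 and -0.025.

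Endothelial and mural genes were compared within each library by the mean difference of log2 CPM from the gene mean over the 6 libraries. In the order control 1, control 2, tau 1, tau 2, treated tau 1 and treated tau 2, the endothelial mean was 0.032, 0.078, -0.031, -0.075, 0.16 and -0.16. The mural mean was 0.039, 0.24, -0.00010, -0.089, 0.21 and -0.40. The sign was the same for both lists in every library. In tau 1 the mural mean was close to 0, and its sign turned to positive (0.0025) with a prior count of 0.5, against -0.032 for the endothelial mean. The lowest and highest endothelial means were both in treated tau. In the same order of libraries, the endothelial mean minus the mural mean was -0.0068, -0.16, -0.031, 0.014, -0.056 and 0.24. The groups overlapped on this difference, and with the median in place of the mean the value of treated tau 2 was 0.022.

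**Figure D4:**
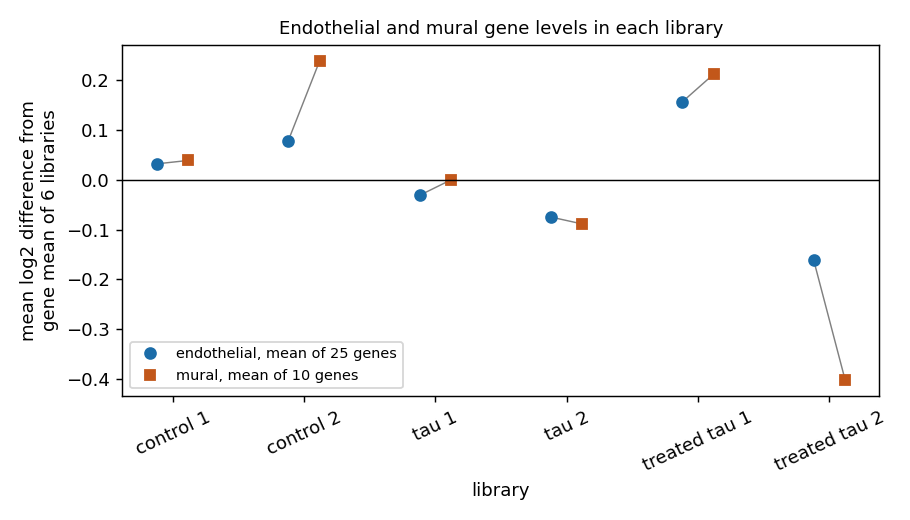
Mean log2 difference from the gene mean of 6 libraries (vertical axis) for the 25 endothelial genes (circles) and the 10 mural genes (squares) in each library. The treated tau libraries hold the highest endothelial value (0.16) and the lowest of both lists (-0.16 and -0.40).

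For vessel genes the treated tau libraries differed from each other more than the other pairs did, with a median absolute log2 difference of 0.40 for endothelial and 0.53 for mural members, against 0.31 and 0.43 in tau and 0.11 and 0.26 in control. Over all genes tested that difference was 0.165 in treated tau, 0.191 in tau and 0.195 in control. Treated tau 1 was higher than treated tau 2 for 21 of 25 endothelial members (84%) and 9 of 10 mural members (90%), where 49.6% of all genes tested were. The median log2 difference was 0.39 for endothelial and 0.24 for mural members, and -0.0024 for all genes tested. Tau 1 was higher than tau 2 for 17 endothelial and 6 mural members, and control 1 was higher than control 2 for 8 and 3. By role, all 6 transporters and all 4 smooth muscle genes were higher in treated tau 1, with median log2 differences of 0.44 and 1.35. Acta2, the smooth muscle actin gene, had 3.63 and 4.86 CPM in control, 3.68 and 6.25 CPM in tau, and 10.9 and 1.79 CPM in treated tau, from 373 and 48 counts. Its log2 fold change in treated tau against tau was 0.48 ± 0.61 (SE; adjusted p = 0.868). Tagln, which encodes the actin-binding protein transgelin, had 18 and 3 counts in treated tau. Myl9, a myosin light chain gene, had 9.82 and 5.48 CPM there.

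The 5 members that went against this order were Ly6a (log2 difference of treated tau 1 minus treated tau 2, -1.14), Anpep (-0.80), Kdr (-0.33), Cldn5 (-0.18) and Tjp1 (-0.051). Among those that followed it, Slco1a4 differed by 0.75 and Itm2a by 0.87. The meningeal and fibroblast markers summed to 63.3 CPM in treated tau 1 and 39.4 CPM in treated tau 2, and the perivascular macrophage markers to 15.7 and 11.0 CPM, in the same order as most vessel genes. Their part in the result was not tested.

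Further genes of the same cells and pathways were read as lists. Of 24 further endothelial genes 0 were called in any of the 3 comparisons. Of all genes tested, 0% were called in tau against control, 3.76% in treated tau against tau and 4.22% in treated tau against control. At such shares 0 calls in a short list say little about its genes. The medians of the further endothelial genes were -0.10 for tau against control, -0.034 for treated tau against tau and -0.12 for treated tau against control. Clec14a, an endothelial lectin gene, led in tau against control (-0.67 ± 0.26 SE, unadjusted p = 0.0279, adjusted p = 0.456), with 6.24 and 7.33 CPM in control and 4.54 and 3.90 CPM in tau. In treated tau against tau Erg, an ETS transcription factor gene of endothelium, led (-0.70, adjusted p = 0.4), and in treated tau against control Tspan13, a tetraspanin gene (0.24, adjusted p = 0.166). Tspan13 was at 63.5 CPM per kb as the mean over the libraries, above every member (Rgs5, the highest, 27.3). Which cells the reads of these further genes came from was not tested. Of 18 further mural genes 0 were called either, with medians of -0.048, 0.054 and -0.033. The proteoglycan gene Cspg4 led in tau against control (-0.37, adjusted p = 0.51). Cnn1, the calponin gene of smooth muscle, led in both comparisons of treated tau, with 0.237 and 0.314 CPM in control, 0.352 and 0.573 CPM in tau and 1.02 and 0.858 CPM in treated tau (1.77 ± 0.50 against control, adjusted p = 0.0931; 1.09 ± 0.46 against tau, adjusted p = 0.383).

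Signalling genes of vessels did not pass either. The lists held 15 ligand genes, 16 receptor and cofactor genes and 9 tested target genes. They belong to VEGF, angiopoietin, Notch, Wnt, PDGF, TGF-beta, endothelin and other vessel signalling. Of these genes 0 were called in any comparison. Of all genes tested, 0% were called in tau against control, 3.76% in treated tau against tau and 4.22% in treated tau against control. Jag1, a Notch ligand, had 10.2 and 12.7 CPM in control, 7.24 and 6.65 CPM in tau and 8.56 and 5.82 CPM in treated tau. Its control libraries were both above the other 4 (-0.71 ± 0.22 SE in tau against control, adjusted p = 0.442; -0.65 ± 0.20 in treated tau against control, adjusted p = 0.138). Among receptors and cofactors, Adgra2, a coreceptor through which Wnt7 ligands act on brain endothelium, led in tau against control (-0.46, adjusted p = 0.451), and Notch1 led in treated tau against control (-0.44, adjusted p = 0.149). Reck, the partner of Adgra2, led in treated tau against tau (0.35, adjusted p = 0.586). Among ligands Edn1, the gene of the vasoconstrictor endothelin, led there (0.84, adjusted p = 0.46), and among targets Nkd1, a Wnt feedback gene (-0.21, adjusted p = 0.754). Heyl, a Notch target, led the targets in both comparisons with control (-1.39, adjusted p = 0.494, for tau; -1.31, adjusted p = 0.274, for treated tau), with 4.10 CPM in control 1 and 0.630 to 1.32 CPM in the other libraries. Vegfa, the ligand of Kdr and Flt1, stayed between 41.3 and 44.7 CPM in all 6 libraries. Pdgfb, which endothelial cells use to recruit pericytes through Pdgfrb, had 15.9 and 16.0 CPM in control, 19.4 and 24.0 CPM in tau and 18.0 and 22.7 CPM in treated tau (0.43 ± 0.16 in tau against control, adjusted p = 0.452). Pdgfrb itself had 16.7 and 20.7 CPM in control, 17.4 and 15.5 CPM in tau and 17.7 and 15.1 CPM in treated tau. Vegfa, Pdgfb and Pdgfrb were named after their values were seen.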

How the data were processed

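Per the labels' protocols, rRNA-depleted strand-specific libraries were sequenced, trimmed by Cutadapt and aligned to RefSeq mRNAs. Tools named by the submitters' processing notes are TopHat2, SAMtools, featureCounts and edgeR, with mm10; the sources used here give no versions. Each library has 1 deposited table of raw read counts per gene symbol. The 53640 shared symbols, which held all but 0.333% to 0.352% of the counts, were filtered (filterByExpr, minimum count 10), TMM-scaled and fitted over all 6 libraries in R 4.3.3 with edgeR 4.0.16 (quasi-likelihood test, 3 residual degrees of freedom, Benjamini-Hochberg adjustment over 20694 genes). The fit was also run on simulated data, with the same spread for every gene and larger changes than those of the members. That run does not show how well changes of the size seen in the members are found. SE is the size of the log2 fold change divided by the square root of the F statistic. Log2 CPM used a prior count of 2. Exon lengths, positions and 50-base windows came from GENCODE M21 (mm10). Alternatives used DESeq2 1.42.0, limma 3.58.1 (voom), other scalings, filters and gene sets, a sex term and left-out libraries. Genes given with values in every library were those called, those with groups apart and an absolute log2 fold change of at least 0.5, and the smallest p per role and comparison; others were named after their values were seen. From the further lists the smallest p was named. Members and lists were chosen with earlier results of these data known, and promoter motifs after the sequences were seen. The labels call the libraries biological duplicates. The p-values rest on the spread between the 2 libraries of a group, pooled over all 3 groups, the control pair included, and drawing on other genes.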

Additional observations from a re-analysis of the deposited data

How the results depend on the processing

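The tests of members were repeated under 16 alternatives. Outside the fits that left out a library, Cldn5 kept its call in treated tau against tau with DESeq2, RLE factors, library totals, a minimum count of 30, limma-voom, the 4 libraries alone and the replicate block, and lost it with no filter on low counts, protein-coding genes alone and the sex term, where 0 members were called. Over all genes, DESeq2 called 55 in tau against control. Protein-coding genes alone gave 45 calls in treated tau against tau and 40 in treated tau against control, and the sex term gave 166 in treated tau against tau. The mural median in tau against control was -0.095 with a minimum count of 30, which left 8 mural members. With the median over genes in place of the mean, the endothelial minus mural value of treated tau 2 was 0.022. The cause of these changes was not tested. Leaving out each library in turn gave 0 to 98 calls over all genes in tau against control (98 without control 2), 354 to 840 in treated tau against tau and 495 to 817 in treated tau against control. Members called ranged from 0 to 1, from 0 to 1 (Itm2a without treated tau 1) and from 0 to 0. In the same order, endothelial medians ranged from -0.13 to 0.0060, from -0.25 to 0.15 and from -0.11 to 0.074, and mural medians from -0.36 to 0.011, from -0.15 to 0.25 and from -0.39 to -0.025. In these fits a lone library is assumed to vary like the other groups. Cldn5 stayed the member called in treated tau against tau without control 1 and without control 2, where the groups compared kept all their libraries. The member called in tau against control was also Cldn5, as given above.

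The replicate numbers were not used to pair libraries: numbers in the titles and in the file headers differ, and the differences between numbers 1 and 2 correlated at 0.01, -0.008 and 0.073 between groups. With a replicate block Cldn5 had a log2 fold change of 0.90 in treated tau against tau (adjusted p = 0.0357), and no other member was called. The low totals limit Tagln and Des most, with 3 to 18 and 12 to 34 counts per library.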
